A study of Homo sapiens with 4 samples.

Results

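The aminoacyl-tRNA synthetases are the enzymes that join each amino acid to its transfer RNA, and they were examined here in LASCPC-01 cells treated with ketotifen or with PBS. Members were chosen by symbol from the deposited expression table: every row named as one letter followed by ARS, with or without a closing 1 or 2, together with EPRS1, FARSA and FARSB. This gave 37 genes among 16376 rows, of which 20 encode cytosolic and 17 mitochondrial enzymes, the latter being the symbols that end in ARS2. The 37 rows make up the known cytosolic and mitochondrial enzyme sets, apart from the threonyl-tRNA synthetase-like gene TARS3, which the symbol rule does not take.

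LASCPC-01 is an established human line of neuroendocrine prostate cancer, derived from benign prostate epithelial cells given N-Myc and an active AKT1, and the labels give its genotype as WT. Both groups were sampled on day 3, with 2 libraries given PBS and 2 given ketotifen, an H1 antihistamine. The sources used here do not give the ketotifen dose, nor say that replicate libraries are separate cultures. P-values therefore measure only how far these samples spread, and that spread may be technical. Expression is in FPKM, which scales fragments by gene length and library total. The lengths the authors divided by are not given, and each level set beside that of another gene rests on them. The letters A and B name the libraries in each group, taken from the column names, and do not pair them across groups.

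Each cell keeps separate charging systems for protein synthesis in the cytosol and in the mitochondrial matrix. Nuclear genes encode both, and most amino acids have one gene for each compartment. GARS1 and KARS1 serve both compartments from a single gene, and glutamine has no separate mitochondrial synthetase, since mitochondria form glutaminyl-tRNA by an indirect route. The enzymes fall into class I and class II by the fold of their catalytic domain. In the cytosol 8 of them, among them EPRS1, IARS1, LARS1, MARS1, QARS1, RARS1 and KARS1, assemble with the scaffold proteins AIMP1, AIMP2 and EEF1E1 into the multi-synthetase complex. Many cytosolic synthetase genes are known targets of ATF4, the transcription factor of the amino acid and integrated stress responses, which binds a composite C/EBP-ATF response element.

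Whole read numbers recovered from the FPKM steps summed to between 30996706 and 34601860 per library, and a member had between 394 and 17723 reads in a library. These are lower bounds where the recovered numbers of a gene share a common factor. Log2 values correlated at r = 0.996 between the PBS libraries and r = 0.998 between the ketotifen libraries, across tested genes, which are not independent replicates. The neuroendocrine factor INSM1 (19.7 to 22.9 FPKM) and the marker UCHL1 (434 to 490.2) were present in all 4 libraries, while the neuroendocrine vesicle markers SYP (0.379 to 0.594) and CHGA (at most 0.0886) were near 0. Of the leucocyte markers PTPRC was at most 0.0281 FPKM and CD3E at most 0.0218, while CD68, a lysosomal protein of macrophages, had 2.77 to 3.97 FPKM. Its part in the results was not tested. The endothelial marker PECAM1 was at most 0.0298 FPKM.

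Matches to the core of the response element were found near the starts of several cytosolic genes, and they are shown because ATF4 is a known regulator of this family. RefSeq promoters (GRCh38.p14, 250 bases before to 50 after the start) were matched for 30 members, 16 cytosolic and 14 mitochondrial. The motif TGATGNAA, searched on both strands, was found in 6 of the 16 cytosolic and 1 of the 14 mitochondrial promoters, against 1.51% of the promoters of tested genes and 3.67% of all 27305 promoters. All 6 cytosolic matches had the form TGATGCAA or its reverse complement TTGCATCA, which 0.472% of the promoters of tested genes hold. The 7 matches are printed 5′ to 3′ on the strand of the gene, each as 30 bases with the motif in capitals.
TARS1: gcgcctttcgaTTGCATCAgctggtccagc
IARS1: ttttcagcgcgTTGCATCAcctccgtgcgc
CARS1: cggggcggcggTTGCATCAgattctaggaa
MARS1: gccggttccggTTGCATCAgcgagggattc
AARS1: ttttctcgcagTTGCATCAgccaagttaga
NARS1: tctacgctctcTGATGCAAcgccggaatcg
YARS2: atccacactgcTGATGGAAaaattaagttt

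The windows lie at chr5:33440956-33440985 (TARS1, plus strand), chr9:92293692-92293721 (IARS1, minus), chr11:3057407-3057436 (CARS1, minus) and chr12:57488053-57488082 (MARS1, plus). Those of AARS1 (chr16:70289675-70289704), NARS1 (chr18:57621804-57621833) and YARS2 (chr12:32756076-32756105) are on the minus strand. The motif began 13, 2 and 4 bases before the start in IARS1, CARS1 and MARS1, and 187 and 197 bases before it in AARS1 and YARS2. In TARS1 and NARS1 it began 2 and 14 bases after the start. A match is a description of these letters, not a site. The E-box CACGTG, the core that MYC proteins bind, was found in 1 cytosolic promoter (IARS1) and 3 mitochondrial ones (MARS2, CARS2 and EARS2), against 10.7% of the promoters of tested genes.

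Cytosolic synthetase transcripts were the more abundant set. With PBS the 20 cytosolic genes summed to 1556 FPKM in library A and 1546 in library B, and with ketotifen to 1583 and 1572. The 17 mitochondrial genes summed to 349 and 335 FPKM with PBS and to 348 and 351 with ketotifen. The cytosolic sum was higher in both ketotifen libraries than in either PBS library, and the mitochondrial sums overlapped. The FPKM sum of all tested genes was itself higher with ketotifen, at 372583 ± 1037 (SD, n = 2) against 359240 ± 6392 with PBS. As a share of that sum the cytosolic genes had 0.428% and 0.436% with PBS and 0.424% and 0.423% with ketotifen, so the order of the groups depended on the scale.

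**Figure D1:**
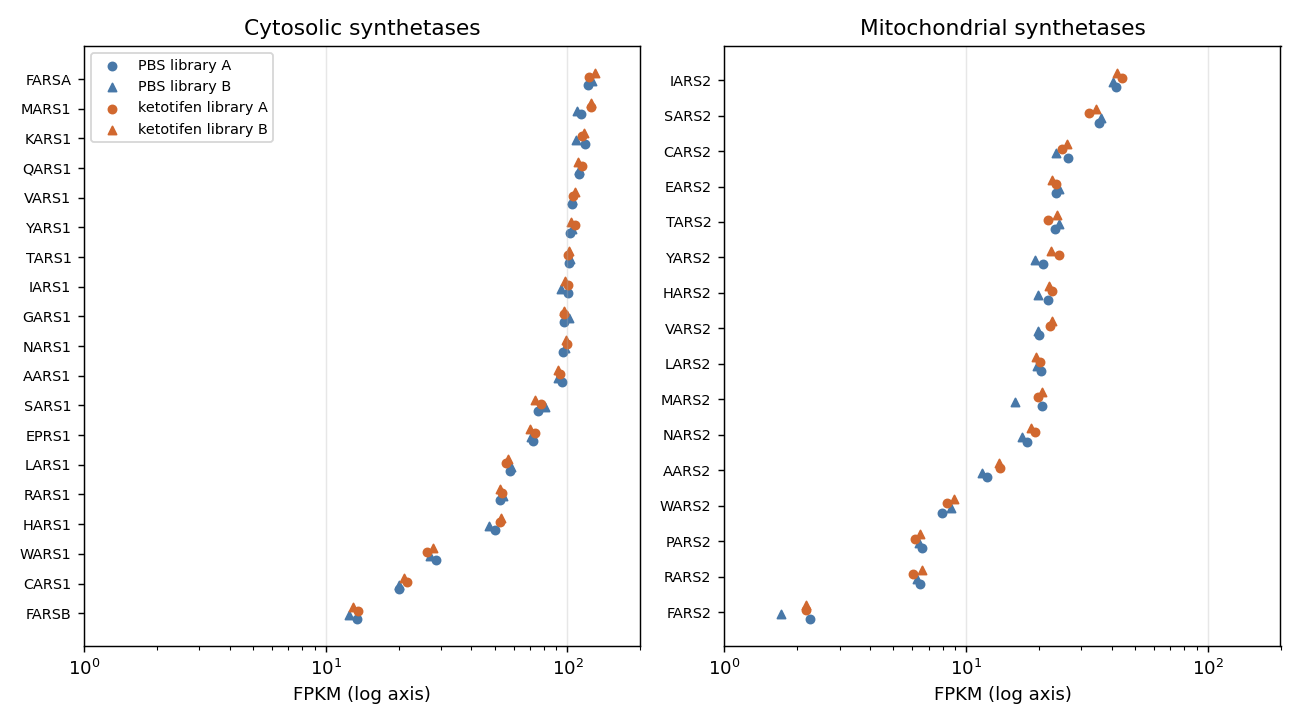
Expression of 35 synthetase genes in FPKM (log axis) in the 4 libraries, cytosolic enzymes on the left and mitochondrial enzymes on the right, ordered by their mean. Blue marks PBS and orange ketotifen, circles library A and triangles library B. The libraries of a gene lie close together, and the order of the genes spans 12.5 to 129.8 FPKM in the cytosolic and 1.71 to 44.0 FPKM in the mitochondrial set.

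FARSA, the catalytic alpha subunit of cytosolic phenylalanyl-tRNA synthetase, had the highest level of the cytosolic set, with 121 and 125.95 FPKM in PBS libraries A and B and 123 and 129.8 FPKM in ketotifen libraries A and B. FARSB, the beta subunit of the same enzyme, had the lowest, with 13.5 and 12.5 FPKM under PBS and 13.5 and 12.9 under ketotifen. The FPKM of FARSA was 9.56 ± 0.778 times that of FARSB with PBS and 9.58 ± 0.697 times with ketotifen (SD, n = 2). In recovered reads the gap was smaller, with 7218 and 7928 for FARSA and 4067 and 3981 for FARSB in the PBS libraries, so much of the ratio comes from the lengths used. FARSA lies at chr19:12922479-12934037 and FARSB at chr2:222570536-222656337, both on the minus strand (GENCODE 29, GRCh38).

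Between these extremes, 11 cytosolic genes had a mean above 90 FPKM over the 4 libraries: FARSA, MARS1, KARS1, QARS1, VARS1, YARS1, TARS1, IARS1, GARS1, NARS1 and AARS1. SARS1, EPRS1, LARS1, RARS1 and HARS1 followed, from 78.0 ± 4.08 FPKM for SARS1 to 48.6 ± 2.15 for HARS1 with PBS (SD, n = 2). EPRS1 encodes the enzyme that charges both glutamate and proline tRNAs, and had 71.3 ± 1.36 FPKM. WARS1, the tryptophanyl enzyme and a known interferon-induced gene, had 27.8 ± 1.10 FPKM, CARS1 20.1 ± 0.0287 and FARSB 13.0 ± 0.706. The enzymes of the multi-synthetase complex did not share a level, with RARS1 at 53.2 ± 0.961 FPKM and KARS1 at 113 ± 6.55.

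In the mitochondrial set IARS2 and SARS2 were among the genes above 30 FPKM, with 41.1 ± 0.723 and 35.8 ± 0.561 FPKM under PBS (SD, n = 2). At the other end, WARS2 had 8.33 ± 0.491 FPKM, PARS2 6.50 ± 0.132, RARS2 6.35 ± 0.13 and FARS2, the single-chain mitochondrial phenylalanyl enzyme, 1.99 ± 0.394. Another 10 genes lay between 11.6 and 26.3 FPKM in every library.

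For 16 pairs described here, the cytosolic and mitochondrial genes of 1 amino acid give a ratio, with EPRS1 taken for both EARS2 and PARS2 and FARSA for FARS2. In 15 of the 16 pairs the cytosolic gene was higher in all 4 libraries. The exception was cysteine. CARS1 had 20.1 FPKM in both PBS libraries where CARS2 had 26.3 and 23.6, a ratio of 0.763 and 0.853. Of the ratios with PBS, 13 lay between 2 and 10, and the largest were 10.97 ± 0.0138 for EPRS1 to PARS2 and 63.5 ± 14.3 for FARSA to FARS2 (SD, n = 2). The size of each ratio depends on the lengths used, while its comparison between libraries does not.

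**Figure D2:**
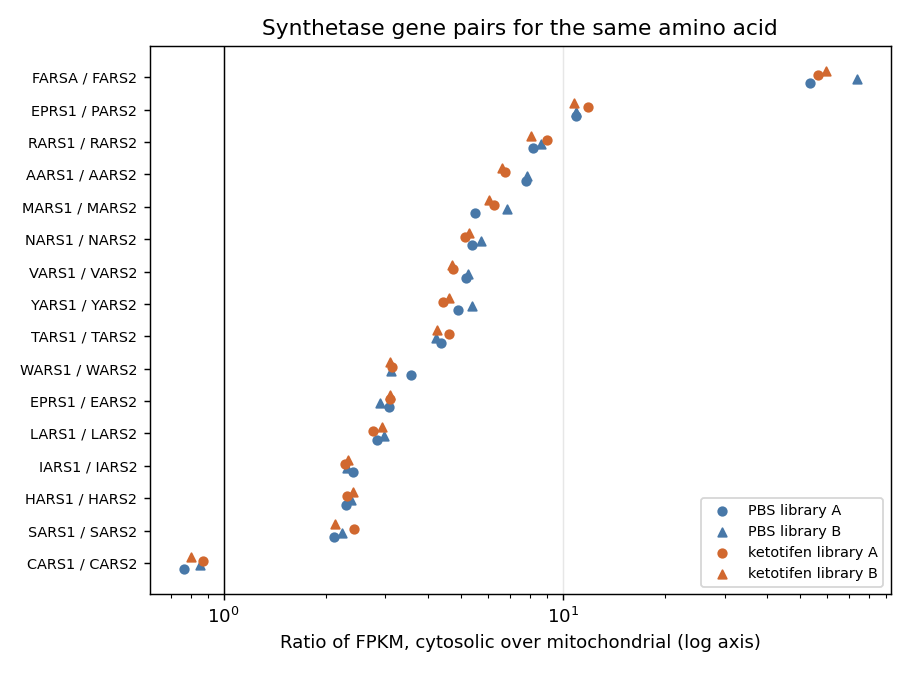
Ratio of cytosolic to mitochondrial FPKM (log axis) for 16 amino acid pairs in the 4 libraries, blue for PBS and orange for ketotifen, circles for library A and triangles for library B. The vertical line marks equal levels: 15 pairs lie to its right in every library, and the cysteine pair to its left.

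No synthetase gene passed the test for a difference between ketotifen and PBS. The test was limma on log2(FPKM + 1) over the 10586 genes that averaged 1 FPKM or more, two-sided, with a Benjamini-Hochberg adjusted p under 0.05 called. All 37 members were tested, 0 were higher and 0 lower past the threshold, and the smallest adjusted p among them was 0.155. Over all tested genes 0.123% were called, 0.00945% (1 gene) higher and 0.113% (12 genes) lower. At an unadjusted p under 0.05 there were 4 higher members and 1 lower, against 10% higher and 10.3% lower of all tested genes. limma's voom on the recovered reads called 3.34% of genes higher and 3.39% lower and also called 0 of the 37, the smallest adjusted p being 0.0517 for MARS1. Without PBS library A, however, limma called 4 members higher (MARS1, MARS2, AARS2 and YARS2), where it called 10% of all tested genes higher and 8.27% lower, a share of members near that of all genes. It is a fit in which the lone PBS library is assumed to vary like the ketotifen libraries. In these bulk libraries fewer cells expressing a gene and less RNA per cell cannot be told apart.

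The log2 change of the 35 members described singly ran from -0.10 for SARS2 to 0.21 for YARS2. The median over all 37 was 0.028, where the median of all tested genes was -0.018. The 95% intervals of the 35 together spanned -0.23 to 0.39. In 29 of the 37 members the whole interval lay within 0.25 of 0, and in 32 of them it included 0. The difference between the PBS libraries themselves was larger than the difference between the groups in 18 of the 37.

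**Figure D3:**
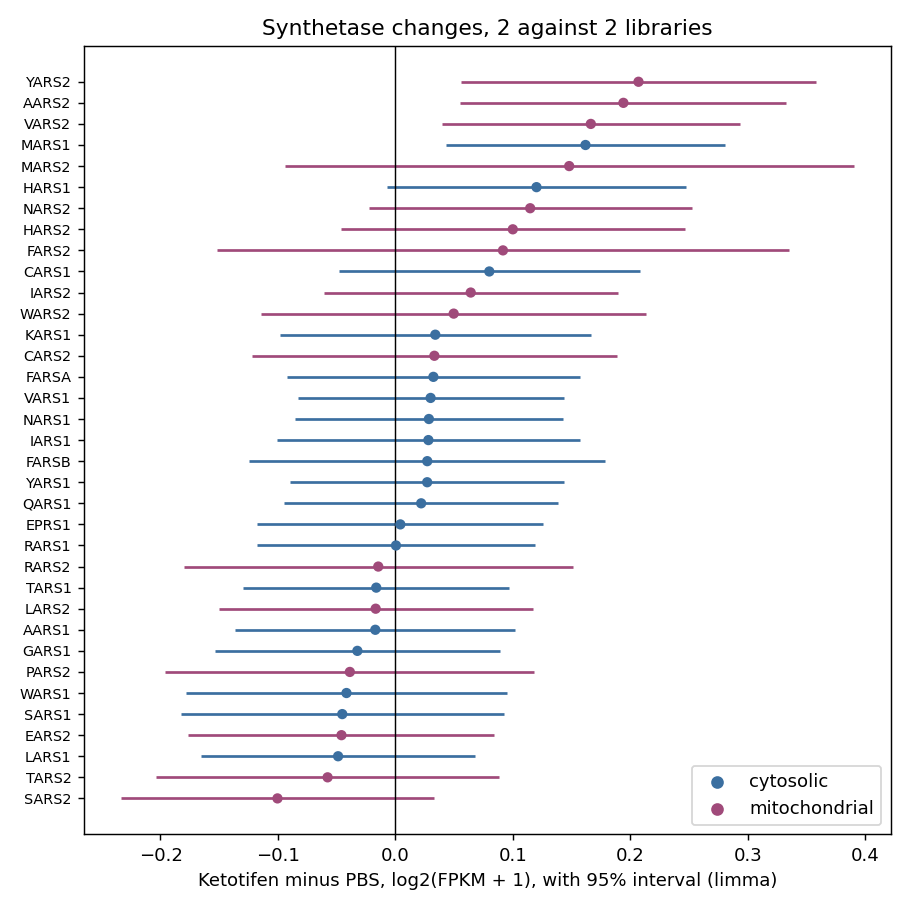
Change of 35 synthetase genes, ketotifen minus PBS on the log2(FPKM + 1) scale, as the limma estimate (point) with its 95% interval (line), blue for cytosolic and purple for mitochondrial genes, 2 libraries per group. The estimates run from -0.10 for SARS2 to 0.21 for YARS2, and none passed after adjustment over all tested genes.

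The cytosolic genes had small estimates. Their median change was 0.027, and 18 of the 20 had a change within 0.1 of 0 on the log2 scale, where 57.3% of the 4275 tested genes in the same range of levels did. Their median absolute change was 0.031, against 0.085 for those genes. That range runs from 13.1 to 125 FPKM, and the cytosolic genes lie high in it, with a median level of 95.2 FPKM. The comparison is therefore not matched in level within the range, and the part of level in the smaller changes was not tested. Class I (10 genes, median 0.024) and class II (10 genes, median 0.028) had like medians, as had the 8 members of the complex (0.025) and the 12 cytosolic genes outside it (0.027). The sign of these small medians depended on the scaling: the cytosolic median was -0.025 when each library was rescaled to an equal FPKM sum and -0.029 after quantile normalization. RARS1, the arginyl enzyme of the complex, had 52.5 and 53.9 FPKM with PBS and 53.8 and 52.6 with ketotifen, with overlapping groups and a change of 0.00 (95% interval -0.12 to 0.12).

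The 2 cytosolic genes outside that band were MARS1 and HARS1, singled out after their values were seen. MARS1 is the methionyl enzyme, which serves both initiator and elongator tRNAs, and had 114 and 109 FPKM in PBS libraries A and B and 124.9 and 125 FPKM in ketotifen libraries A and B. Both ketotifen values lay above both PBS values, and the change was 0.16 ± 0.05 (SE; 95% interval 0.04 to 0.28; limma adjusted p = 0.160). MARS1 lies at chr12:57475445-57517569 on the plus strand, and its exons overlap those of DDIT3 and ARHGAP9 on the opposite strand. DDIT3, which encodes the stress factor CHOP, had 6.10 and 5.67 FPKM with PBS and 4.80 and 5.06 with ketotifen, the opposite order to MARS1. The strand setting of the counting is not stated, and reads of overlapping genes cannot be told apart.

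HARS1 and its mitochondrial counterpart HARS2 are neighbours on chromosome 5 and are read in opposite directions from a short stretch between their starts. HARS1, the cytosolic histidyl enzyme, had 50.2 and 47.1 FPKM with PBS and 52.6 and 53.3 with ketotifen. HARS2 had 21.8 and 19.9 FPKM with PBS and 22.7 and 22.1 with ketotifen. Both genes had no overlap between the groups, with changes of 0.12 ± 0.06 and 0.10 ± 0.06 (SE), and neither passed (limma adjusted p = 0.263 and 0.405). Their ratio was 2.33 ± 0.0503 with PBS and 2.36 ± 0.0644 with ketotifen (SD, n = 2), a difference within the spread. The 84 bases between the RefSeq starts are shown because both genes are read from there, on the plus strand at chr5:140691371-140691454, with the ETS-type motif CCGGAAG or its reverse complement in capitals.
HARS1 to HARS2: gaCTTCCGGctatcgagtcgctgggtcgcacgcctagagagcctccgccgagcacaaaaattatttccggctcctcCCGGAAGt

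The motif is present on both strands of this stretch. It was found in 14 of the 30 synthetase promoters, 8 cytosolic and 6 mitochondrial, against 21.3% of the promoters of tested genes. The promoters of HARS1 and HARS2 share 184 bases, so the same matches are counted once in each set. GENCODE 29 models of HARS1 and HARS2 overlap in exon sequence on opposite strands, so some reads could belong to either. HARS2 also overlaps ZMAT2 in exon sequence, on the same strand.

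The mitochondrial genes held most of the larger estimates, without a test of that difference. Their median change was 0.050, their median absolute change 0.092 against 0.088 for the 7975 tested genes in the same range of levels, and 10 of the 17 lay within 0.1 of 0. At equal FPKM sums this median was 0.0024, and it was -0.029 without PBS library B. YARS2, the tyrosyl enzyme, had 20.8 and 19.4 FPKM with PBS and 24.2 and 22.5 with ketotifen. AARS2, the alanyl enzyme, had 12.2 and 11.6 FPKM with PBS and 13.8 and 13.7 with ketotifen. VARS2, the valyl enzyme, had 20.04 and 19.9 FPKM with PBS and 22.3 and 22.7 with ketotifen. In these 3 genes every ketotifen library lay above every PBS library.

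The changes on the log2 scale were 0.21 ± 0.07 (SE) for YARS2, 0.19 ± 0.06 for AARS2 and 0.17 ± 0.05 for VARS2, with limma adjusted p-values of 0.159, 0.155 and 0.169 and voom adjusted p-values of 0.0951, 0.0638 and 0.104. Across the settings tried, VARS2 passed in none. AARS2 and YARS2 passed without PBS library A (adjusted p = 0.0386 and 0.0112) and in no other setting. YARS2 lies at chr12:32727490-32755902 (minus strand), AARS2 at chr6:44299654-44313326 (minus) and VARS2 at chr6:30908242-30926459 (plus). Exons of VARS2 overlap those of GTF2H4 on the same strand.

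SARS2, the mitochondrial seryl enzyme, had 35.4 and 36.2 FPKM with PBS and 32.2 and 34.6 with ketotifen (change -0.10 ± 0.06, SE, limma adjusted p = 0.363). Both ketotifen values lay below both PBS values.

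MARS2 and FARS2 show how a single library set the estimates of some members. MARS2 had 20.7 FPKM in PBS library A and 16.0 in PBS library B, and 19.9 and 20.6 with ketotifen. These values rest on 2060, 1681, 2213 and 2108 reads, and the difference between the PBS libraries, -0.35 on the log2 scale (B minus A), exceeded every difference between the groups in the family. Its change was 0.15 ± 0.11 (SE, limma adjusted p = 0.454) with all libraries, 0.325 (adjusted p = 0.00181) without PBS library A. It was -0.029 with PBS library B left out instead. FARS2 had 2.27 and 1.71 FPKM with PBS and 2.18 and 2.17 with ketotifen, with library B again the lower PBS value.

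Over all 37 members the groups did not overlap in 16: 12 were higher and 4 lower with ketotifen. Over all tested genes 23.2% were higher and 31.2% lower without overlap. Among the higher genes were 5 cytosolic (MARS1, HARS1, CARS1, VARS1 and NARS1) and 6 mitochondrial (YARS2, AARS2, VARS2, NARS2, HARS2 and IARS2). Among the lower genes were LARS1, TARS1 and SARS2. LARS1, the leucyl enzyme and a known leucine sensor for mTORC1, had 57.8 and 58.6 FPKM with PBS and 55.6 and 56.9 with ketotifen. In several of these genes the gap was small, as in TARS1 with 102 and 103 against 101 FPKM in both ketotifen libraries.

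The ratio between compartments did not overlap between the groups in 5 of the 16 pairs. The AARS1 to AARS2 ratio was 7.82 ± 0.0208 with PBS and 6.68 ± 0.089 with ketotifen (SD, n = 2). The VARS1 to VARS2 ratio was 5.22 ± 0.0496 and 4.72 ± 0.0321, and the YARS1 to YARS2 ratio 5.16 ± 0.33 and 4.52 ± 0.135. The EPRS1 to EARS2 ratio went the other way, from 2.99 ± 0.127 to 3.09 ± 0.0135. Of the 16 ratios, 4 were lower and 1 higher in both ketotifen libraries than in either PBS library, and 11 overlapped. With 2 libraries against 2, order alone leaves a ratio without overlap, in either direction, at a rate of 0.333. The 5 of 16 is near that rate and is not a result about the pairs. The share among ratios of other gene pairs was not computed. An exact permutation test on a ratio cannot go below p = 0.333, so none was made.

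The changes of the 6 cytosolic genes with a match to the motif were 0.16 for MARS1, 0.08 for CARS1, 0.03 for IARS1, 0.03 for NARS1, -0.02 for TARS1 and -0.02 for AARS1. The other targets of ATF4 were examined as a list of 35 genes, of which 31 were tested and 0 passed in limma (median change -0.021). ATF4 itself had 76.0 FPKM in both PBS libraries and 75.4 in both ketotifen libraries. ASNS, the asparagine synthetase used as a marker of amino acid starvation, had 48.8 and 46.8 FPKM with PBS and 48.8 and 49.5 with ketotifen. At an unadjusted p under 0.05 there were 7 lower and 2 higher, against 10.3% and 10% of all tested genes, and 13 were lower and 8 higher without overlap between the groups, against 31.2% and 23.2%. Voom called 2 of the 31 lower and 2 higher, against 3.39% and 3.34% of all genes. Limma gave a median change of -0.018 with PBS library A left out and -0.031 with PBS library B left out. With PBS library B left out it called 3 lower and 1 higher, where 1.58% of all genes were called lower and 2.40% higher. CHAC1, a glutathione-degrading enzyme induced by ATF4, had 6.11 and 6.01 FPKM with PBS and 4.55 and 4.65 with ketotifen (voom adjusted p = 0.0279, limma adjusted p = 0.1003). STC2, a secreted stress-induced glycoprotein, had 24.7 and 22.9 FPKM with PBS and 19.8 and 18.2 with ketotifen (adjusted p = 0.0084 in voom and 0.102 in limma). The 2 higher genes were SLC3A2, the heavy chain of the amino acid transporters, with 78.2 and 63.6 FPKM against 88.5 and 86.9, and PSAT1, an enzyme of serine synthesis named after its value was seen, with 56.1 and 49.2 against 60.6 and 61.1. In SLC3A2 the PBS libraries themselves differed by more than the groups did at their nearest values.

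The estimates for the scaffolds of the multi-synthetase complex went in different directions. AIMP1 had 14.9 and 14.4 FPKM with PBS and 17.1 in both ketotifen libraries, a change of 0.21 ± 0.06 (SE). EEF1E1, also called AIMP3, had 56.6 and 57.1 FPKM with PBS and 63.2 and 64.5 with ketotifen, a change of 0.17 ± 0.05. AIMP2 had 54.6 and 56.6 FPKM with PBS and 48.0 and 49.8 with ketotifen, a change of -0.18 ± 0.05. In all 3 the groups did not overlap, where 23.2% of all tested genes were higher and 31.2% lower without overlap. None passed in limma (adjusted p = 0.131, 0.152 and 0.148). Voom called AIMP1 higher (adjusted p = 0.0469), where it called 3.34% of all genes higher. It did not call EEF1E1 (adjusted p = 0.302) or AIMP2 (adjusted p = 0.064). The SE of EEF1E1 was 0.095 in voom and 0.050 in limma, and whether its recovered reads are too low was not tested. The 7 named synthetases of the complex ranged from -0.05 to 0.16. The list of scaffolds and partner proteins also holds the GatCAB amidotransferase subunits, the tRNA deacylases DTD1 and DTD2 and the exporter XPOT. It had 13 of 14 genes tested, 0 past the threshold in limma and a median of 0.058. The median was 0.047 with PBS library A left out.

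Genes that modify tRNAs were examined next, and none passed in limma with all 4 libraries. Of 33 cytosolic tRNA modification genes all were tested, with a median change of 0.097, and 11 were higher and 0 lower at an unadjusted p under 0.05, against 10% and 10.3% of all tested genes. Fewer reached that p when either ketotifen library was left out, as was so over all tested genes. The median change was 0.11 without ketotifen library A and 0.076 without ketotifen library B. Limma called 10 higher when PBS library A was left out and 3 when PBS library B was, where 10% and 2.40% of all genes were called higher. Voom called 3 higher, against 3.34% of all genes. QTRT1, the catalytic subunit of the enzyme that inserts queuosine into tRNAs, had 37.2 and 34.5 FPKM with PBS and 47.4 and 48.2 with ketotifen, a change of 0.41 ± 0.06 (SE, limma adjusted p = 0.0713, voom adjusted p = 0.00294). Voom also called WDR4, a subunit of the tRNA guanosine methyltransferase (18.91 and 18.32 against 22.04 and 21.64 FPKM), and YRDC, named after its value was seen (20.05 and 15.46 against 23.6 and 21.5 FPKM). OSGEP, of the complex that makes threonylcarbamoyladenosine in tRNAs, had 16.8 and 17.0 FPKM with PBS and 21.3 and 19.4 with ketotifen (voom adjusted p = 0.0575).

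All 16 genes of mitochondrial tRNA maturation were tested, with a median of 0.029, and voom called 3 higher and 0 lower, against 3.34% and 3.39% of all genes. The median was 0.013 when PBS library A was left out and 0.057 when PBS library B was. HSD17B10, a subunit of mitochondrial RNase P, had 102 and 92.8 FPKM with PBS and 115 and 120.4 with ketotifen (adjusted p = 0.102 in limma and 0.0148 in voom). TRMU, which thiolates mitochondrial tRNAs, had 29.7 and 25.3 FPKM with PBS and 34.0 and 34.2 with ketotifen, and PUS1, a pseudouridine synthase, 36.9 and 34.1 against 45.6 and 40.5. These 3 genes were named for the smallest limma p of the list, a choice that favours groups without overlap. In each, PBS library B was the lowest of the 4 libraries and every ketotifen library lay above both PBS libraries. Of the 16 genes 7 were higher and 2 lower without overlap, against 23.2% and 31.2% of all tested genes.

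Among 24 genes of RNA polymerase III, which transcribes tRNA genes, all were tested, 0 passed in limma and the median was -0.0026. The median was 0.016 with PBS library A left out and 0.015 with PBS library B left out. Voom called 2 of the 24 higher, where it called 3.34% of all genes higher. They were POLR1C, a subunit shared with RNA polymerase I (12.8 and 12.9 against 16.1 and 15.5 FPKM), and POLR3K (52.5 and 38.1 against 61.5 and 62.7 FPKM). POLR3G, the subunit of the form of the enzyme used in undifferentiated cells, had 21.0 and 23.2 FPKM with PBS and 19.1 and 19.3 with ketotifen (limma adjusted p = 0.175). The 9 genes of the eIF2 alpha kinases and phosphatase had a median of -0.068, with 0 past the threshold in limma and in voom with all 4 libraries. Leaving out PBS library A moved this median to -0.11, while it was -0.069 when PBS library B was left out. IMPACT, an inhibitor of the amino acid sensor GCN2, had 6.86 and 7.20 FPKM with PBS and 5.73 and 6.04 with ketotifen. EIF2AK2 had 8.57 and 9.50 against 7.51 and 8.20 FPKM, and EIF2AK1 44.5 and 48.8 against 41.9 and 42.9.

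WARS1 is known to be induced by interferon, and interferon response genes were examined beside it. WARS1 had 28.6 and 27.0 FPKM with PBS and 26.2 and 27.7 with ketotifen, with overlapping groups. Of 20 interferon response genes 10 were tested and 0 passed in limma or voom with all 4 libraries, with a median of 0.13. Leaving out PBS library A gave a median of 0.14, and leaving out PBS library B gave 0.083. ISG15, a ubiquitin-like protein, had 96.2 and 79.4 FPKM with PBS and 103 and 102.5 with ketotifen. PSMB8, an immunoproteasome subunit, had 52.8 and 44.0 against 55.8 and 57.1 FPKM, and TAP1, the peptide transporter, 23.5 and 21.1 against 25.0 in both ketotifen libraries. In these tested genes the PBS libraries differed by a median of -0.14 (B minus A), about the size of the difference between the groups.

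**Figure D4:**
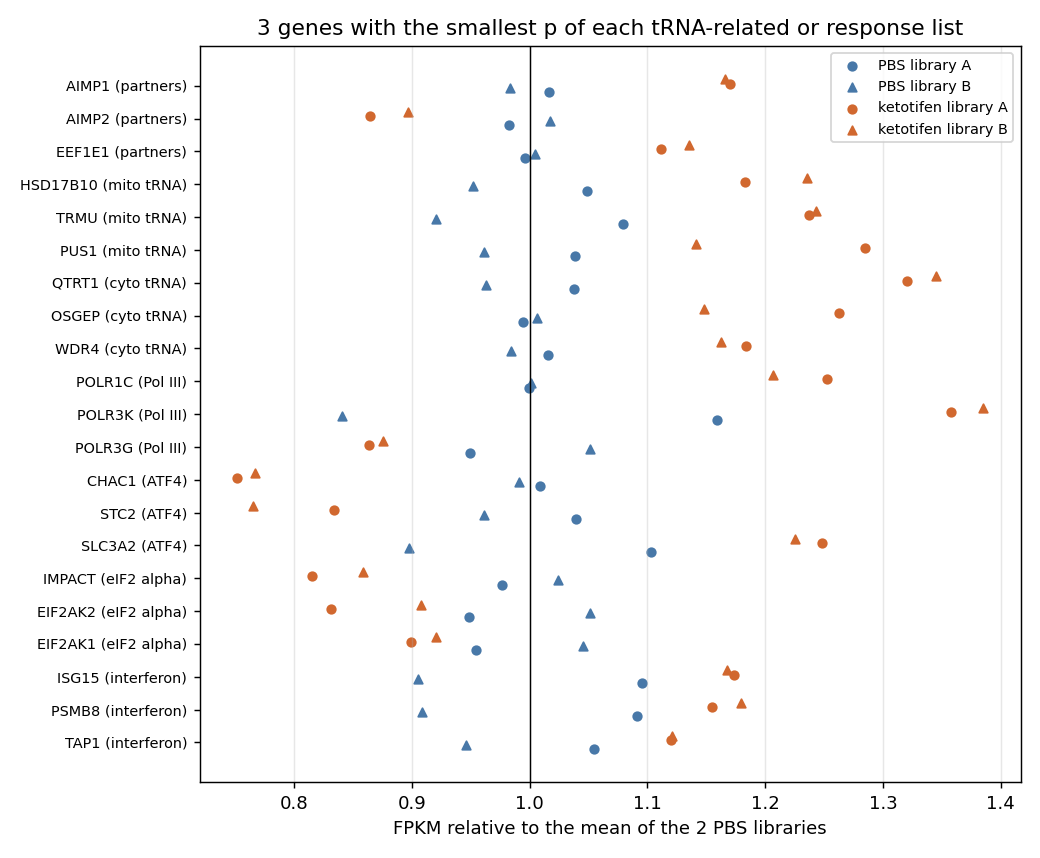
FPKM of the 3 genes with the smallest limma p in each list around the synthetases, relative to the mean of the 2 PBS libraries, for the 4 libraries (blue PBS, orange ketotifen, circles library A, triangles library B). QTRT1 and POLR3K stand highest with ketotifen and CHAC1 lowest, and in several genes the PBS libraries lie apart from each other.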

How the data were processed

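mRNA of LASCPC-01 cells was sequenced in 4 libraries, 2 with PBS and 2 with ketotifen (TRIzol extraction, stranded mRNA kit, paired-end reads, per the labels' protocols). Tools named, without roles, in the submitters' processing notes are fastp, HISAT2 and HTSeq, and the build is GRCh38. The deposited values are FPKM per gene, as the authors made them. The sources used here give no annotation, gene lengths or strand setting. Columns were assigned to groups by name, and their letters were not matched to replicate numbers.

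limma 3.58.1 (R 4.3.3) was run with an intensity trend on log2(FPKM + 1) for genes averaging 1 FPKM or more. Fold changes on this scale understate those of low genes. Whole reads were recovered from the FPKM steps for 10585 of 10586 tested genes, within the rounding error of the printed digits, where that error stayed under 0.05 reads. Of 500 decoys, in which the value of each library was multiplied by its own random factor, 0 gave whole reads. Relative to PBS library A, depths were 1.06, 1.12 and 1.03 for PBS library B and ketotifen libraries A and B. voom used these reads and depths. Where the recovered reads of a gene are lower bounds, the weight that voom gives the gene is too low, and its voom p-value carries that limit. Both tests were tested on simulated data with planted changes.

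Single values of 2 members and of 1 marker are not reported here. The other members may be named; of other lists, the 3 genes with the smallest limma p and any past the threshold. The members and lists were chosen with earlier results of these data known. The other motifs, the comparison of overlap between groups in the ratios and the neighbouring genes were added after the data were seen. Promoter sequences are RefSeq's, and positions of genes are from GENCODE 29. Python was 3.11.15.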

Additional observations from a re-analysis of the deposited data

How the results depend on the processing

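Of 37 members 0 were called in the main setting. That count also held with a pseudocount of 0.1 or 5, without a filter, at a mean FPKM of 5 or more (36 members tested), after median ratio scaling, quantile normalization or rescaling to an equal sum, and with voom. Leaving out each library in turn gave 0 to 4, the 4 without PBS library A. The count over all genes depended strongly on the setting. It was 13 in the main fit of limma and 27 at a mean FPKM of 5 or more. With no filter it was 0, where 2295 genes had an unadjusted limma p under 0.05. After median ratio scaling it was 3, after quantile normalization 3, and with voom on the filtered genes 713. Leaving out libraries gave 10 to 1936 (1936 without PBS library A, 421 without PBS library B, 28 and 10 without ketotifen libraries A and B). The cause was not tested.

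With the library letter as a replicate block, 637 genes were called, 406 of them higher, and 0 members, the smallest member adjusted p in limma being 0.0598. Same-letter libraries deviated together with r = 0.102 across genes, but the letters could not be tied to the replicate numbers in the labels, so the libraries share only a letter. Among the lists the block called 3 cytosolic tRNA modification genes, 3 mitochondrial tRNA genes and 2 RNA polymerase III genes higher, and 1 ATF4 target higher and 3 lower. The 5 FPKM filter called 1 cytosolic tRNA modification gene higher.

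The cytosolic median of 0.027 was 0.046 after median ratio scaling, -0.029 after quantile normalization and -0.025 at equal sums, with -0.00014 to 0.029 when libraries were left out. The mitochondrial median of 0.050 was 0.0024 at equal sums, with -0.029 to 0.082 when libraries were left out. Equal sums moved the median of all genes from -0.018 to -0.064. They turned the sign of 11 members, quantile normalization of 10 and median ratio scaling of 4.

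For scaffolds and partners the median was 0.064 and 0.040 with pseudocounts of 0.1 and 5, 0.045 with no filter, 0.067 with at least 5 FPKM, 0.076 after median ratio scaling, 0.083 after quantile normalization, 0.011 at equal sums and 0.066 with voom (0.018 to 0.050 leaving libraries out). For mitochondrial tRNA genes it was 0.076 with at least 5 FPKM and -0.022 at equal sums (0.013 to 0.061). For cytosolic tRNA modification it was 0.070 with a pseudocount of 5 and 0.046 at equal sums (0.076 to 0.11). For RNA polymerase III it was 0.016 after median ratio scaling, 0.013 after quantile normalization and -0.052 at equal sums (-0.0043 to 0.016). For ATF4 targets it was -0.00091, -0.039 and -0.073 in that order (-0.053 to -0.012). For the eIF2 alpha list it was -0.12 at equal sums (-0.11 to -0.059), and for interferon genes leaving libraries out gave 0.032 to 0.15.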

Other observations

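Several synthetase genes have a protein-coding gene that starts within 1000 bases on the opposite strand, 11 of the 37 in GENCODE 29. HARS1 and HARS2 are each other's neighbour. SARS2 lies opposite MRPS12, a mitochondrial ribosomal protein gene, with 348 bases of overlap at their starts. MRPS12 had a mean of 58.2 ± 9.79 FPKM (SD, n = 2) under PBS and 72.2 ± 4.36 under ketotifen, with adjusted p = 0.167 in limma and 0.0346 in voom, where SARS2 had lower values with ketotifen. FARS2 starts 105 bases from LYRM4, an assembly factor for iron-sulfur clusters, at 3.70 ± 0.113 FPKM under PBS and 4.58 ± 0.0127 under ketotifen (adjusted p = 0.148 in limma and 0.0436 in voom). AARS1 starts 120 bases from DDX19B, and RARS2 starts 64 bases from ORC3, a subunit of the origin recognition complex. None of these neighbours passed in limma. Exons of 12 members overlap those of another gene in the table, and with the strand setting not given their reads cannot be separated. For VARS2 with GTF2H4 and HARS2 with ZMAT2 the overlap is on the same strand, which a strand setting would not resolve.

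TARS3, a cytosolic threonyl-tRNA synthetase-like gene outside the symbol rule, had 4.09 and 4.18 FPKM with PBS and 3.50 and 3.82 with ketotifen (limma adjusted p = 0.337). Its level was far below that of TARS1 in every library.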
